A study of Mus musculus with 2 samples.

Results

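The heart RNA of 1 mouse was examined for 40 genes of the antioxidant, glutathione and thioredoxin systems. They comprise superoxide dismutases, peroxidases, peroxiredoxins, thioredoxins, enzymes of glutathione synthesis and reduction, glutathione transferases, metallothioneins and the regulators of this response. They were taken as every row whose gene identifier maps to 1 of the 40 listed symbols, and all 40 were found among 43346 Ensembl genes. The series is a poly(A) RNA-seq experiment on heart tissue from 1 adult female of strain C57BL/6J, 10 weeks old. It holds 2 libraries, technical replicates 2 and 1 of 1 biological replicate, with RNA from a lipid tissue extraction kit and a stated size range of 350 to 450. Replicate 2 dates from 2015 and was no part of the earlier publication. C57BL/6J is an inbred strain known to carry a deletion within Nnt, and no treatment is given for either library. With 1 animal, every spread below is technical, and 95% intervals cover counting error only.

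As background, superoxide made by mitochondria and oxidases is converted to hydrogen peroxide by superoxide dismutases, and the peroxide, much of it of mitochondrial origin in the heart, is then reduced by catalase, glutathione peroxidases and peroxiredoxins. The last 2 kinds of enzyme draw electrons from glutathione and thioredoxin, which are kept reduced at the expense of NADPH. KEAP1 holds the transcription factor NRF2 (gene Nfe2l2) in check until electrophiles or oxidants modify it, and NRF2 then activates many of these genes through antioxidant response elements.

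Expected counts are the authors' estimates of reads per gene, and TPM is an abundance per transcript length scaled to a sum of 1000000 in each library. Replicate 2 held 19685821 counts and replicate 1 held 22775991, but 60.9% of the TPM of replicate 2 and 92.8% of that of replicate 1 belonged to mitochondrial genes and their nuclear copies. In counts, which are not corrected for length, the other nuclear genes held 12654724 in replicate 2 and 5028154 in replicate 1. Nuclear TPM below means TPM rescaled without the 37 mitochondrial genes and 11 copies. All 7 cardiomyocyte markers reached 1 TPM in replicate 2 and in replicate 1. Their leading pair were Myl2, with 10108 TPM in replicate 2 and 546 TPM in replicate 1, and Tnnt2, with 6078 TPM in replicate 2 and 119.8 TPM in replicate 1. The markers did not all differ in this way. Pln had 2361 TPM in replicate 2 and 2118 TPM in replicate 1, or 6039 nuclear TPM in replicate 2 and 29346 in replicate 1.

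Sequences that bear on the results are shown first. Glutathione peroxidases and thioredoxin reductases carry selenocysteine, which is encoded by TGA, otherwise a stop codon. An annotated selenocysteine codon was found in 5 of the 40 genes, and these stretches are shown because the codon sets the active site of 5 enzymes whose levels follow. Each is part of the coding sequence in release M21 on mm10, with the TGA in capitals and the coordinates of that codon.
Gpx1 (chr9:108339451-108339453 (+)): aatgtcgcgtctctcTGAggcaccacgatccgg
Gpx3 (chr11:54907256-54907258 (+)): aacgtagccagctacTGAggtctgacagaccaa
Gpx4 (chr10:80054737-80054739 (+)): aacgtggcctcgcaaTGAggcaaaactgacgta
Txnrd1 (chr10:82896037-82896039 (+)): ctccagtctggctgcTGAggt
Txnrd2 (chr16:18477772-18477774 (+)): actgtgactggttgcTGAggc
The codon is number 47 of 201 in Gpx1, 73 of 226 in Gpx3, 73 of 197 in Gpx4, 498 of 499 in Txnrd1 and 526 of 527 in Txnrd2. In both reductases it is thus the last codon but one, and in the peroxidases it lies in the first part of the protein.

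Nnt encodes the transhydrogenase of the inner mitochondrial membrane, which makes NADPH from NADH and so feeds glutathione and thioredoxin reduction. The reference genome comes from the same strain, so tables made on it cannot show the exons lost, and the deletion itself was not tested. Its annotated transcripts Nnt-202 and Nnt-201 differ by 2 exons, which are shown because the libraries were assigned different transcripts. Capitals mark the exon, lower-case letters the 15 bases of the transcript on either side.
Nnt exon 8 (chr13:119374629-119374774 (-)): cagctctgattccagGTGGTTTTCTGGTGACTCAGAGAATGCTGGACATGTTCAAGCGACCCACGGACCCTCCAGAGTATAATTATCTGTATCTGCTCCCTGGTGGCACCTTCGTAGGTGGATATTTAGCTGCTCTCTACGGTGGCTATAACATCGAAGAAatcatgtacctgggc
Nnt exon 9 (chr13:119372396-119372591 (-)): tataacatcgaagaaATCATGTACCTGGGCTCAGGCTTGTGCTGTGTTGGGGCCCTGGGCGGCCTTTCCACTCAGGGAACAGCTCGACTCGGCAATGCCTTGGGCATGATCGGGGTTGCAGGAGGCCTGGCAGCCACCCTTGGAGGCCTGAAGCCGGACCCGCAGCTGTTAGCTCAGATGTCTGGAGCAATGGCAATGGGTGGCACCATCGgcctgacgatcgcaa
In Nnt-201 the exon before them is joined directly to the exon after them, with capitals marking the downstream exon.
Nnt-201 junction: cagctctgattccagGCCTGACGATCGCAA
Nnt lies on chr13:119335448-119408997 on the minus strand. The pair of exons, the eighth and the ninth of Nnt-202, add 342 bases or 114 codons and had a GC content of 56.4%, against 48.7% for Nnt-201. The coding sequence is 2505 bases long in Nnt-202 (17 exons) and 2163 bases long in Nnt-201 (15 exons).

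Metallothioneins bind zinc, copper and cadmium and are induced through metal response elements. RefSeq promoters (GRCm38.p6, 250 bases before to 50 after the start) of Mt1 and Mt2 are shown to mark these elements in the metallothionein genes of the set. A link between the elements and the ratios of the 2 technical libraries was not tested. Capitals mark matches to TGCACNC or TGCGCNC on either strand.
Mt1 promoter (chr8:94178839-94179138 (+)): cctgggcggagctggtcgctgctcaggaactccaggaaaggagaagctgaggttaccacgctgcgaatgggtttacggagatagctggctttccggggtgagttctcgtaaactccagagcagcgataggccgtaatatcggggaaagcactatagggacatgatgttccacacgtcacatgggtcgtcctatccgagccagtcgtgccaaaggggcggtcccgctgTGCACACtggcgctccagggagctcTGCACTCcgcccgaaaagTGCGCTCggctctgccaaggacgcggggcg
Mt2 promoter (chr8:94172368-94172667 (+)): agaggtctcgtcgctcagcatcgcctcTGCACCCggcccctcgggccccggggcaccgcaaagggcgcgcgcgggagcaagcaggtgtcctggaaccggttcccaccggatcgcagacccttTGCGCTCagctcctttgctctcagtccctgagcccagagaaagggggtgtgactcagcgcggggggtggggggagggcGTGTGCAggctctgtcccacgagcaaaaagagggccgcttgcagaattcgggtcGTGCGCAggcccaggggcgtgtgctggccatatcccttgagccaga
Mt1 held 3 such matches and Mt2 held 4. Over all 32851 promoters 25.7% held a match and 1.97% held at least 3. The 33 genes of the set with a promoter entry had 51 promoters, of which 12 held a match.

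The antioxidant response element was searched as TGACNNNGC on either strand. It was found in 8 of the 51 promoters of the set and in 12.4% of all 32851 promoters. The matches are shown with 8 bases on either side in the direction of the motif, the motif in capitals, to show which of the measured genes hold the letters of the element bound by NRF2 with its small MAF partners. Coordinates are those of the window.
Gclm (chr3:122245415-122245439 (-)): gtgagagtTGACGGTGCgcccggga
Mgst1 (chr6:138140463-138140487 (-)): ccgcctccTGACCGTGCcaagcccc
Mt2 (chr8:94172531-94172555 (+)): agggggtgTGACTCAGCgcgggggg
Nfe2l2 (chr2:75704887-75704911 (-)): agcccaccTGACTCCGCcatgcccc
Prdx1 (chr4:116685458-116685482 (-)): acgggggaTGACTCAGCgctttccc
Sod1 (chr16:90220698-90220722 (-)): cctgagtcTGACCACGCccaccttg
Srxn1 (chr2:152105544-152105568 (-)): tctcactcTGACCTAGCtgcccact
Txnrd1 (chr10:82859106-82859130 (-)): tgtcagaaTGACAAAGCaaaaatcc
The motif lay closest to the start in Srxn1, 28 bases after it, followed by Mgst1 and Sod1, each 56 bases before it. The letters in capitals were the same in Prdx1 and Mt2. In Gclm the match overlapped one to the metal response element. No match in other genes says only that the letters are not in that window. Sod3, Prdx6, Gsr, Gclc, Nnt, Hmox1 and Gsta4 had no entry.

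All 40 genes were detected in both libraries, and every one had a higher deposited TPM in replicate 2. Summed over the set, TPM was 3705 in replicate 2 and 510.1 in replicate 1, and the mean was 2107 ± 2259 (SD, n = 2 libraries). After removal of the mitochondrial part the sums were 9476 nuclear TPM in replicate 2 and 7066 nuclear TPM in replicate 1, a ratio of 1.34. By counts the set made up 0.720% of nuclear counts in replicate 2 (95% Wilson interval 0.715 to 0.725) and 0.4995% in replicate 1 (0.493 to 0.506). The median gene had 50.3 TPM in replicate 2 and 4.02 TPM in replicate 1, and at least 1 TPM was reached by 40 genes in replicate 2 and 30 genes in replicate 1. Relative to the other nuclear genes the set stood high in both libraries, at a median percentile of 92.00 in replicate 2 and 78.0 in replicate 1.

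**Figure D1:**
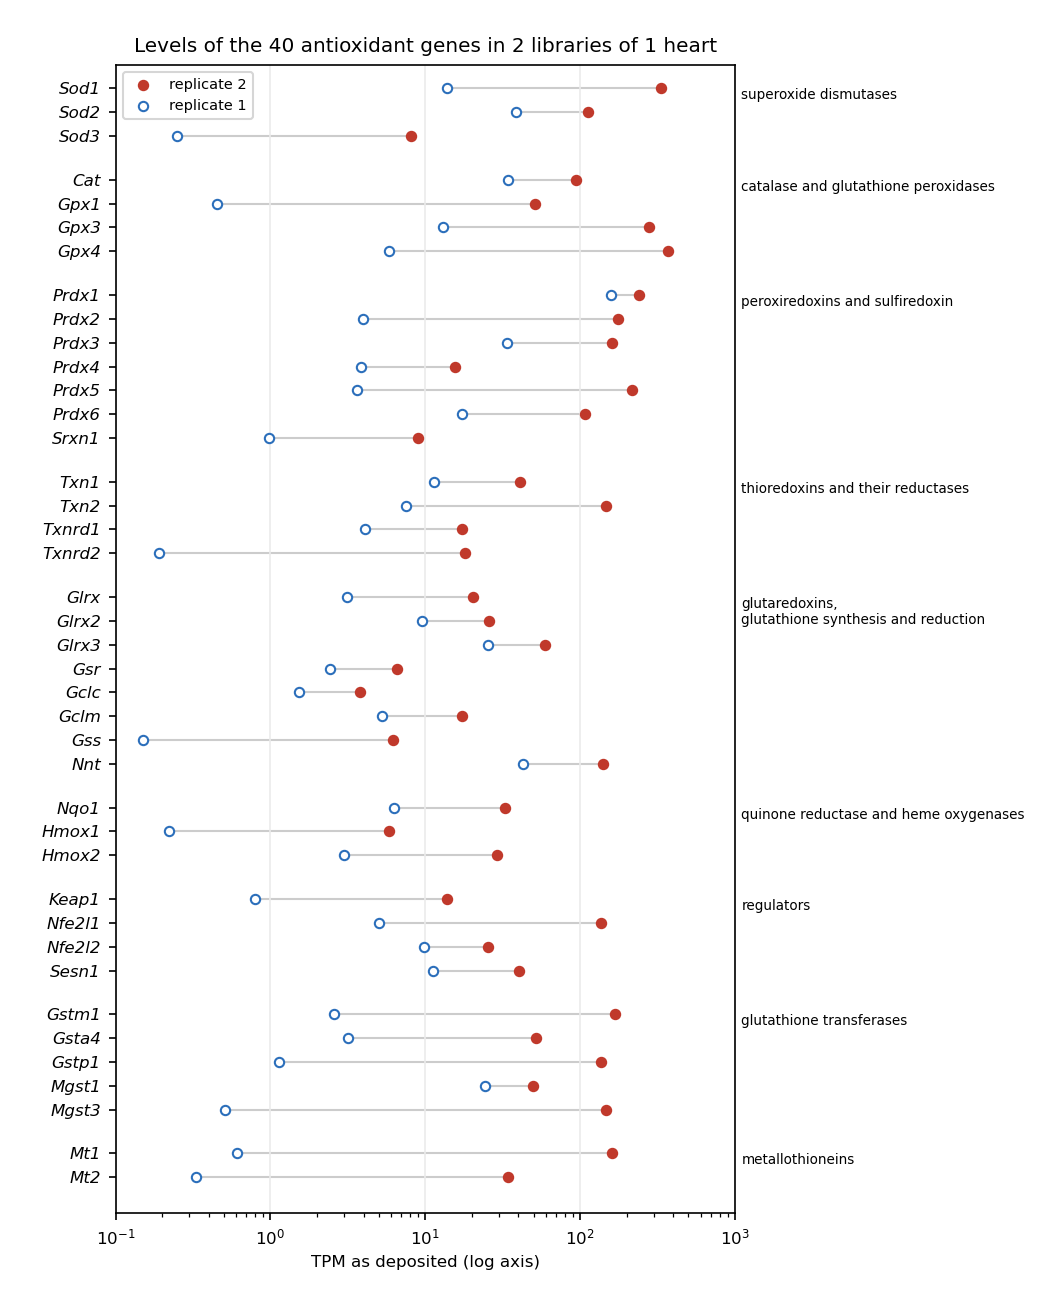
TPM as deposited (log axis) of the 40 genes, ordered by role, with filled points for replicate 2 and open points for replicate 1 of the same heart. Every filled point lies to the right of its open point, and the distance ranges from Prdx1 (239 TPM in replicate 2, 158 TPM in replicate 1) to Mgst3 (147 TPM in replicate 2, 0.51 TPM in replicate 1).

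To compare the libraries gene by gene, counts were scaled by TMM, a method that sets the bulk of genes level, and a gene was called when its ratio of replicate 2 over replicate 1 was at least 2-fold. With 1 library on each side there is no test behind these calls. Of the 40 genes 20 were called higher in replicate 2, beside 39.0% of the 13182 genes tested. Another 2, Glrx2 and Gclm, were called lower, beside 27.3% of the genes tested. The median log2 ratio was 0.95 in the set and 0.21 over all genes tested. Replicate 1 had under 20 counts for 7 of the 40 genes, Gpx1, Txnrd2, Gss, Hmox1, Mgst3, Mt1 and Mt2, and these passed the filter of 20 counts through replicate 2 alone. All 7 are among the 20 called higher, so the 20 cannot be read as an excess over the 39.0%. With at least 20 counts in each library, 13 of 33 genes were called higher. The share of all genes under that filter was not computed. Since the ratio also followed GC content, values with the GC trend removed, meaning after subtraction of the median log2 ratio of genes with like GC content, are given beside some genes and, for every gene whose sign turned, with the GC comparison further on.

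Superoxide dismutases differed in which member led. Sod1, the cytosolic copper and zinc enzyme, had 332 TPM in replicate 2 and 13.8 TPM in replicate 1 (2937 counts in replicate 2, 205 in replicate 1), and was called higher in replicate 2 at 5.16-fold (95% interval 4.49 to 5.99). Sod2, the mitochondrial manganese enzyme, had 112 TPM in replicate 2 and 38.8 TPM in replicate 1 (7853 counts in replicate 2, 4570 in replicate 1). Sod1 was thus 2.97-fold above Sod2 in replicate 2, whereas Sod2 was 2.80-fold above Sod1 in replicate 1. This order change was lost when replicate 1 was brought to the GC profile of replicate 2, with log2 ratios of Sod2 over Sod1 of -1.57 in replicate 2 and -1.73 in replicate 1. Sod3, the secreted enzyme of the extracellular matrix, had 8.07 TPM in replicate 2 and 0.25 TPM in replicate 1 (528 counts in replicate 2, 27 in replicate 1). It was also called higher (6.94-fold, 4.80 to 10.8). The log2 ratio of Sod3 over Sod1, with 0.1 TPM added, was -5.34 in replicate 2 and -5.31 in replicate 1. At so low a level in replicate 1 this ratio depends on the amount added. Its mean over the 2 libraries, -5.33, became -5.54 with 0.01 TPM added and -4.38 with 1 TPM added.

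The 3 glutathione peroxidases of the set were called higher in replicate 2, beside 39.0% of all genes tested, and catalase was not called. None of these peroxidases stayed called once the GC trend was removed, with log2 ratios of 0.95 for Gpx1, 0.34 for Gpx4 and -0.38 for Gpx3. Gpx4 (chr10:80047166-80056439, plus strand), which reduces lipid hydroperoxides in membranes, had 371 TPM in replicate 2, the highest level of the set there. In replicate 1 it had 5.80 TPM and rank 17, from 5332 counts in replicate 2 and 81 in replicate 1, a ratio of 23.6 (19.1 to 29.97). Gpx3, the secreted plasma enzyme, had 276 TPM in replicate 2 and 13.02 TPM in replicate 1, 5.94-fold higher (5.40 to 6.55). Gpx1, the main cytosolic enzyme, had 50.8 TPM in replicate 2 and 0.45 TPM in replicate 1, where it rested on 13 counts (17.7-fold, 10.7 to 34.8). Cat, the peroxisomal catalase, had 94.3 TPM in replicate 2 and 34.3 TPM in replicate 1, a scaled ratio of 0.592 that was short of a call. The order Gpx4 above Gpx1 and Gpx3 above Gpx1 held in both libraries.

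Peroxiredoxins, thiol peroxidases of which most are reduced by thioredoxin, made up 24.9% of the TPM of the set in replicate 2 and 43.4% in replicate 1, together with Srxn1. Prdx1 (chr4:116685544-116700822, plus strand), a cytosolic member, led the whole set in replicate 1 with 158 TPM and had rank 4 in replicate 2 with 239 TPM. Its counts were 5029 in replicate 2 and 3545 in replicate 1, and the scaled ratio of 0.512 was just short of a call for lower. Prdx3, the mitochondrial member, had 159.8 TPM in replicate 2 and 33.6 TPM in replicate 1. Its TMM-scaled ratio of 1.02 (0.961 to 1.09) was the closest to 1 of all 40. That depended on the scaling, with a log2 ratio of 0.97, just short of a call, once the GC trend was removed. It was -0.08 with DESeq2 size factors and -0.19 with rescaled TPM. Prdx2 and Prdx5 were the members called higher. Prdx5, found in mitochondria, peroxisomes and cytosol, had 217 TPM in replicate 2 and 3.61 TPM in replicate 1 (3781 counts in replicate 2, 45 in replicate 1), a log2 ratio of 4.91 with a 95% interval from 22.6-fold to 41.7-fold. About 19.1% of its exon bases overlap Trmt112 on the other strand, for which 240 counts were listed in replicate 2 and 12 in replicate 1. Prdx2, abundant in red cells, had 176 TPM in replicate 2 and 3.96 TPM in replicate 1 (3641 counts in replicate 2, 97 in replicate 1, 13.5-fold, 11.1 to 16.8).

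Red cell markers moved the same way as Prdx2. All 5 (Hba-a1, Hba-a2, Hbb-bs, Hbb-bt and Alas2) were called higher in replicate 2, beside 39.0% of all genes tested, and their summed nuclear TPM was 12857 in replicate 2 and 1001 in replicate 1. None was at 0, and the part of red cell RNA in the Prdx2 ratio was not tested. Of the other marker lists, 4 of 5 macrophage, 5 of 7 cardiomyocyte, 4 of 6 endothelial, 3 of 4 mural, 3 of 4 hepatocyte, 2 of 3 adipocyte and 2 of 6 fibroblast genes tested were called higher. Called lower, beside 27.3% of all genes tested, were 2 of 6 fibroblast, 1 of 7 cardiomyocyte, 1 of 4 mural and 1 of 4 hepatocyte genes. No macrophage, endothelial or adipocyte gene was called lower. Both libraries are technical replicates of 1 heart, so these calls compare libraries, and the part of GC content in them was not tested. In whole tissue, the number of cells of a type and RNA per cell cannot be told apart either. Prdx6, which also has phospholipase activity, had 107 TPM in replicate 2 and 17.3 TPM in replicate 1. Prdx4, the member of the endoplasmic reticulum, had 15.7 TPM in replicate 2 and 3.85 TPM in replicate 1. Srxn1, sulfiredoxin, which repairs overoxidised peroxiredoxins, had 8.95 TPM in replicate 2 and 0.98 TPM in replicate 1. These 3 genes stayed within 2-fold after scaling.

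In the thioredoxin system the mitochondrial genes were called higher in replicate 2, beside 39.0% of all genes tested, and the cytosolic genes were not. GC content was 55.6% for Txn2 and 56.4% for Txnrd2, against 47.2% for Txn1 and 48.9% for Txnrd1. Once the GC trend was removed, log2 ratios were -0.74 for Txn2, 1.31 for Txnrd2, 0.06 for Txn1 and -0.07 for Txnrd1. Txnrd2 passed the count filter through replicate 2 alone. Txn2, mitochondrial thioredoxin, had 147 TPM in replicate 2 and 7.47 TPM in replicate 1 (4.11-fold, 3.62 to 4.69). Txnrd2, its reductase, had 17.98 TPM in replicate 2 and 0.19 TPM in replicate 1, where 7 counts were assigned (22.7-fold, 11.7 to 60.9). Their cytosolic counterparts were Txn1, with 41.1 TPM in replicate 2 and 11.5 TPM in replicate 1, and Txnrd1, with 17.4 TPM in replicate 2 and 4.07 TPM in replicate 1. The ratio of Txnrd1 to Txn1 was close in both libraries, at log2 values of -1.24 in replicate 2 and -1.47 in replicate 1. The mitochondrial and cytosolic forms changed order. Txn2 was 3.56-fold above Txn1 in replicate 2, against 0.655-fold in replicate 1, and Txnrd2 was 1.03-fold the level of Txnrd1 in replicate 2, against 0.0695-fold in replicate 1. At the GC profile of replicate 2, Txn2 was above Txn1 in replicate 1 as well, at a log2 ratio of 2.61.

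Glutathione synthesis runs through glutamate cysteine ligase, a dimer of the catalytic Gclc and the modifier Gclm, and then through glutathione synthetase, Gss. Gclc was the lowest member in replicate 2 with 3.79 TPM, beside 1.54 TPM in replicate 1. Gclm had 17.2 TPM in replicate 2 and 5.27 TPM in replicate 1. Its 593 counts in replicate 2 and 627 in replicate 1 gave a scaled ratio of 0.341 (0.305 to 0.383), and it was called lower, whereas with rescaled TPM its log2 ratio was -0.73. In both libraries Gclm stood above Gclc, 4.44-fold in replicate 2 and 3.27-fold in replicate 1. Gss had 6.17 TPM in replicate 2 and 0.15 TPM in replicate 1, the lowest value in that library. It had 202 counts in replicate 2 but 11 in replicate 1, and was called higher (6.36-fold, 3.63 to 13.5).

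Reduction of oxidised glutathione depends on glutathione reductase, Gsr, which had 6.56 TPM in replicate 2 and 2.42 TPM in replicate 1. Nnt had 141 TPM in replicate 2 and 42.9 TPM in replicate 1 (8702 counts in replicate 2, 4112 in replicate 1), and had rank 12 of the 40 in replicate 2 and rank 2 in replicate 1. Its scaled ratio was 0.764 (0.736 to 0.793), within 2-fold. Nnt exceeded Gsr 21.1-fold in replicate 2 and 17.1-fold in replicate 1, for which the log2 ratio averaged 4.25 ± 0.22 (SD, n = 2 libraries). Glutaredoxins use glutathione to reduce protein disulfides. Glrx2, the mitochondrial form, had 25.8 TPM in replicate 2 and 9.57 TPM in replicate 1, and was called lower at a scaled ratio of 0.432. Its upper bound of 0.50 lay at the threshold. Glrx3, which handles iron and sulfur clusters, had 59.7 TPM in replicate 2 and 25.5 TPM in replicate 1. Glrx, the cytosolic form, had 20.3 TPM in replicate 2 and 3.14 TPM in replicate 1. Glrx3 was the highest of the 3 in both libraries and Glrx the lowest.

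Nqo1, the quinone reductase and a classic NRF2 target, had 32.9 TPM in replicate 2 and 6.30 TPM in replicate 1 with a scaled ratio of 1.12 (0.979 to 1.29). Hmox2, the constitutive heme oxygenase, had 29.1 TPM in replicate 2 and 2.98 TPM in replicate 1, and was called higher at 2.02-fold (1.68 to 2.46), an interval that reached below the threshold. With DESeq2 size factors its log2 ratio was 0.91, short of a call. Of its exon bases 40.2% overlap Cdip1 on the other strand, which had 1275 counts in replicate 2 and 229 in replicate 1. Hmox1, the inducible form, was lower than Hmox2 in both libraries, with 5.87 TPM in replicate 2 and 0.22 TPM in replicate 1 (159 counts in replicate 2, 10 in replicate 1, 5.48-fold, 3.04 to 12.2).

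Among the regulators Nfe2l1 and Nfe2l2 changed order in the values as deposited. Nfe2l1, a related factor that controls proteasome genes, had 137 TPM in replicate 2 and 5.06 TPM in replicate 1 (4.96-fold, 4.57 to 5.38). Nfe2l2 had 25.5 TPM in replicate 2 and 9.84 TPM in replicate 1 (1110 counts in replicate 2, 709 in replicate 1). Nfe2l1 was thus 5.37-fold above Nfe2l2 in replicate 2 and 0.519-fold its level in replicate 1. With the GC profile of replicate 2 the order was the same, at log2 ratios of 2.42 in replicate 2 and 1.69 in replicate 1. Keap1 had 13.9 TPM in replicate 2 and 0.80 TPM in replicate 1, called higher at 5.02-fold (3.86 to 6.74) but at -1.90 on the log2 scale once the GC trend was removed. Sesn1, a sestrin that restrains mTORC1 signalling, had 40.3 TPM in replicate 2 and 11.2 TPM in replicate 1 and was not called.

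Glutathione transferases conjugate glutathione to electrophiles. They summed to 554 TPM in replicate 2 and 31.6 TPM in replicate 1, or 3.24-fold higher in nuclear TPM. Of the 5 in the set, 4 were called higher, beside 39.0% of all genes tested. Mgst3 (chr1:167371966-167393841, minus strand), a membrane-bound member, had 147 TPM in replicate 2 and 0.51 TPM in replicate 1. Its 2590 counts in replicate 2 and 15 in replicate 1 gave 60.3-fold (37.7 to 112), the highest ratio of the 40. Gstp1 had 137 TPM in replicate 2 and 1.14 TPM in replicate 1 (25.2-fold, 16.8 to 41.9). Its near-identical copy Gstp2 had 139 counts in replicate 2 and 0 in replicate 1, so the split between them is uncertain. Near-identical copies of Glrx3, Prdx1, Prdx2, Sod1 and Txn1 had at most 11.9 counts in a library. Gstm1 had 168 TPM in replicate 2 and 2.57 TPM in replicate 1 (13.8-fold, 11.3 to 17.3). Gsta4, which clears the lipid aldehyde 4-hydroxynonenal, had 52.2 TPM in replicate 2 and 3.16 TPM in replicate 1 (3.53-fold, 2.81 to 4.53). Mgst1, the exception, had 49.7 TPM in replicate 2 and 24.2 TPM in replicate 1, a scaled ratio of 0.595. Mgst3 was therefore 2.96-fold above Mgst1 in replicate 2, and Mgst1 was 39.8-fold above Mgst3 in replicate 1.

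Metallothioneins showed the widest gap of any role in summed nuclear TPM, without regard to GC content. With the GC trend removed, log2 ratios were 1.49 for Mt1 and 1.52 for Mt2. Those of the transferases Mgst3 (5.32), Gstm1 (2.10), Gsta4 (1.87) and Gstp1 (1.71) were then higher. Both metallothionein genes passed the count filter through replicate 2 alone. Mt1 (chr8:94179082-94180327, plus strand) had 160.4 TPM in replicate 2 and 0.61 TPM in replicate 1, from 1091 counts in replicate 2 and 7 in replicate 1 (52.5-fold, 27.2 to 140.3). Mt2 (chr8:94172664-94173568, plus strand) had 34.3 TPM in replicate 2 and 0.33 TPM in replicate 1, from 244 counts in replicate 2 and 4 in replicate 1 (19.6-fold, 8.49 to 81.5). Summed nuclear TPM was 498 in replicate 2 and 13.02 in replicate 1, a 38.2-fold gap, and Mt1 was above Mt2 in both. The promoters with metal response elements shown above belong to genes for which replicate 1 holds too few counts to place the level closely.

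Genes called higher had the higher GC content. The 20 genes called higher had a GC content of 49.2% to 58.6% (median 55.0%), and the 18 within 2-fold had 42.2% to 54.1% (median 47.1%). None of the 11 genes below 47% was called higher, against 5 of 13 from 47% to 53% and 15 of 16 at 53% or above. The share of all genes called was not computed by class, so these counts cannot be set against it. The median log2 ratio in those classes was -0.75, -0.12 and 3.23 in the set, beside -1.42, 0.26 and 3.13 over all tested nuclear genes. Across the 40 genes, which share the same 2 libraries, GC content and log2 ratio had a Pearson correlation of 0.82 and a Spearman correlation of 0.83. Over all tested nuclear genes these were 0.85 and 0.90. Why the libraries differ along GC content was not tested.

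**Figure D2:**
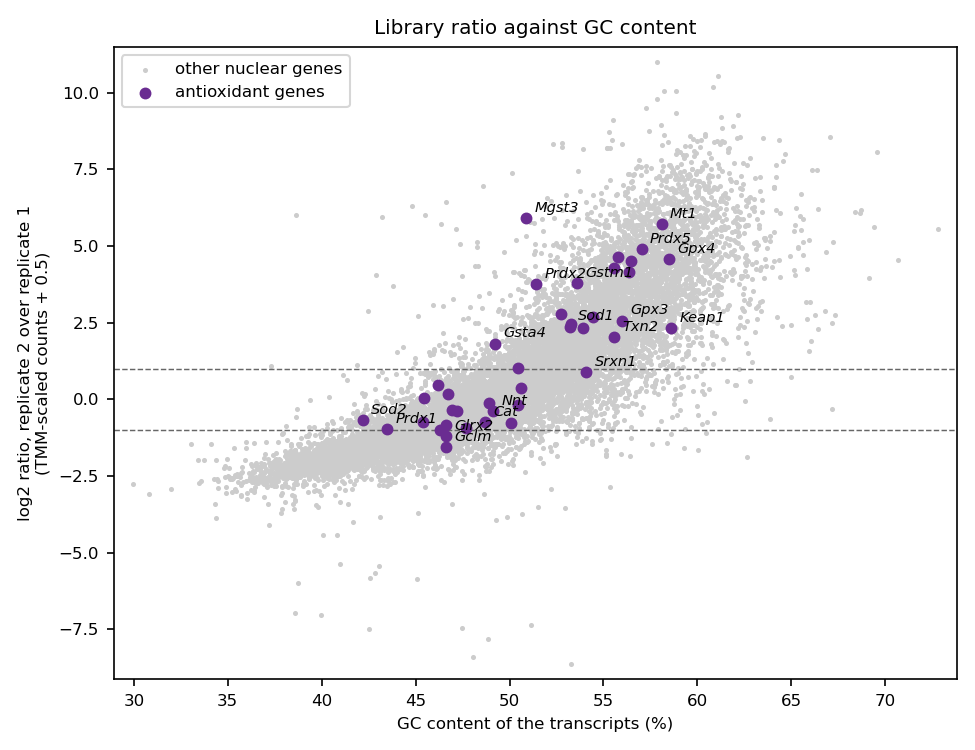
Log2 ratio of TMM-scaled counts, replicate 2 over replicate 1, against the GC content of the transcripts (%), for the 40 antioxidant genes (large points) and the other tested nuclear genes (small points). Dashed lines mark 2-fold, and most of the set lies within the cloud of all genes, with Mgst3 (log2 ratio 5.91 at 50.9% GC) far above it and Keap1 (2.33 at 58.6% GC) at its lower side.

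When the median log2 ratio of genes with like GC content was subtracted, 11 of the 40 genes, or 27.5%, were higher in replicate 2, beside 14.8% of all genes, and 3, or 7.5%, were lower, beside 12.9%. The median log2 ratio of the set was then 0.38. Of the 20 genes called higher before, 10 were still called higher. These were Sod3, Prdx2, Prdx5, Txnrd2, Gstm1, Gsta4, Gstp1, Mgst3, Mt1 and Mt2, and Glrx joined them at a log2 ratio of 1.32. Of these, Txnrd2, Mgst3, Mt1 and Mt2 had 7, 15, 7 and 4 counts in replicate 1 and passed the count filter through replicate 2 alone, which bears on the share of 27.5%. Mgst3 was furthest above the trend at 5.32, followed by Prdx2 at 2.94, Gstm1 at 2.10 and Gsta4 at 1.87. Each transferase called before was thus called again. Gpx4 came to 0.34 and Sod1 to 0.78, and neither Glrx2 nor Gclm remained called lower. Among genes called before, signs turned for Gpx3 (-0.38), Txn2 (-0.74) and Keap1 (-1.90). Signs also turned for 7 genes that had stayed within 2-fold, Sod2 (0.94), Prdx1 (0.39), Txn1 (0.06), Sesn1 (0.26), Mgst1 (0.19), Prdx6 (-0.15) and Srxn1 (-1.05). Keap1, Gsr (-1.23) and Srxn1 were then called lower.

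Ratios of related genes within a library do not depend on the scale of that library, except where a level is so low that the added 0.1 TPM matters. In 28 such pairs the same gene was higher in both libraries for 20, and the order differed for 8. The 8 were Sod2 and Sod1, Prdx3 and Prdx2, Prdx5 and Prdx3, Txn2 and Txn1, Txnrd2 and Txnrd1, Nfe2l1 and Nfe2l2, Gsta4 and Gstm1, and Mgst3 and Mgst1. With replicate 1 brought to the GC profile of replicate 2, 23 pairs had the same sign, among them 5 of those 8. Prdx3 over Prdx2 (1.30 in replicate 1), Txnrd2 over Txnrd1 (-0.60) and Mgst3 over Mgst1 still differed. Nfe2l2 over Keap1 (0.87 in replicate 2 and -1.47 in replicate 1) and Gstp1 over Gstm1 (-0.30 in replicate 2 and 0.15 in replicate 1) then differed as well. The largest gap was that of Mgst3 over Mgst1, with a log2 ratio of 1.57 in replicate 2 and -5.32 in replicate 1, and at the GC profile of replicate 2 it was -3.77 in replicate 1. Cat over Gpx1 kept its direction but not its size, with 0.89 in replicate 2 and 5.97 in replicate 1.

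**Figure D3:**
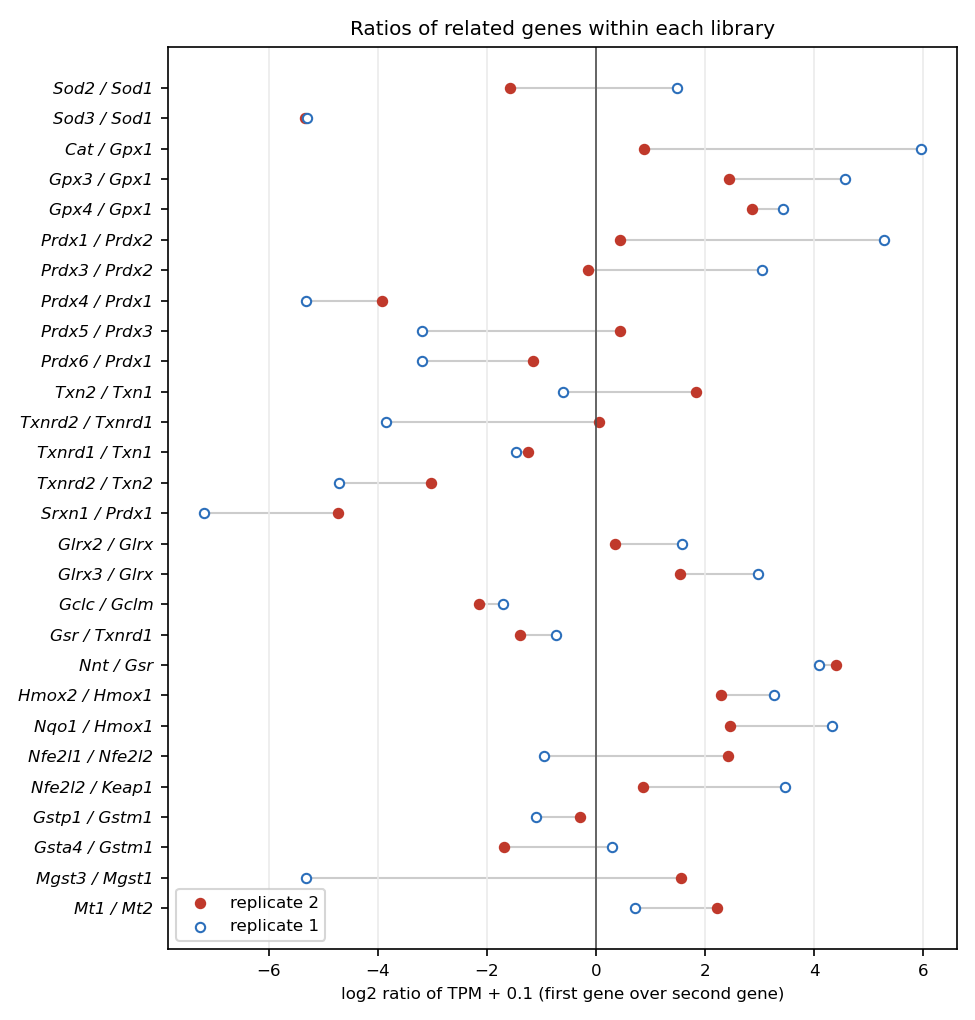
Log2 ratio of TPM + 0.1 of the first gene over the second for 28 pairs of related genes, with filled points for replicate 2 and open points for replicate 1. The pairs Sod3 and Sod1, Nnt and Gsr, and Txnrd1 and Txn1 nearly coincide, whereas 8 pairs lie on opposite sides of 0. For Sod3, at 0.25 TPM in replicate 1, the position depends on the 0.1 TPM added.

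The transcript tables split each gene's abundance over its annotated transcripts. Of the 40 genes 15 have 1 transcript and 25 have more. In 16 of the 25 the same transcript led in both libraries, as with Nfe2l2-201 (96.6% of the gene in replicate 2, 93.5% in replicate 1), Sesn1-201 (90.1% in replicate 2, 92.9% in replicate 1) and Txn2-201 (89.7% in replicate 2, 92.8% in replicate 1). Prdx1-205 led in both with 45.2% in replicate 2 and 83.8% in replicate 1. For Prdx6 the leader in both was Prdx6-208, annotated as a target of nonsense-mediated decay, at 38.8% in replicate 2 and 86.1% in replicate 1. Its annotated coding part is 228 bases long, beside 672 bases in Prdx6-202.

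A different transcript led in 9 genes, and 7 of these had at least 20 counts in each library. Nnt-202 carried 80.4% of Nnt in replicate 2 and 9.24% in replicate 1, and Nnt-201 carried 18.5% in replicate 2 and 89.5% in replicate 1. In counts this was 7168 for Nnt-202 and 1473 for Nnt-201 in replicate 2, against 422 and 3657 in replicate 1. The libraries thus differed in how much was assigned to the transcript with the 2 exons shown above. Mgst1-201 carried 61.7% of Mgst1 in replicate 2 and 1.23% in replicate 1, and Mgst1-207 carried 4.64% in replicate 2 and 97.8% in replicate 1. Gclm-206 carried 36.9% of Gclm in replicate 2 and was listed at 0 in replicate 1, where Gclm-201 carried 77.6%, beside 29.3% in replicate 2. For Prdx5 it was Prdx5-201 in replicate 2 (65.4%, listed at 0 in replicate 1) and Prdx5-204 in replicate 1 (82.3%, beside 1.01% in replicate 2). Prdx2-201 held 62.7% in replicate 2 and 4.10% in replicate 1, and Prdx2-208 held 0.66% in replicate 2 and 42.4% in replicate 1.

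Gpx4-202, a coding transcript, led in replicate 2 with 87.6% and was listed at 0 in replicate 1, where the noncoding Gpx4-205 led with 53.6%. Nfe2l1-211 led in replicate 2 (35.9%, beside 48.3% in replicate 1) and Nfe2l1-212 in replicate 1 (50.4%, beside 15.2% in replicate 2). By shares of posterior mean TPM, another deposited estimate, Nfe2l1-211 led in both libraries. The leader of Keap1 differed instead, with Keap1-205 in replicate 2 and Keap1-203 in replicate 1. By these shares Prdx2-205, a retained intron, led Prdx2 in replicate 1 with 39.6%, beside 33.9% for Prdx2-208. Txnrd2 and Gss also had different leaders in the libraries but had 7 and 11 counts in replicate 1. There the leader of each also changed with the posterior mean shares. The leader in replicate 1 had the lower GC content in 7 of the 9 genes and was the shorter transcript in 7 of the 9. As these shares are estimates, and the part of GC content in them was not tested, they describe the tables and not which transcripts the heart makes.

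**Figure D4:**
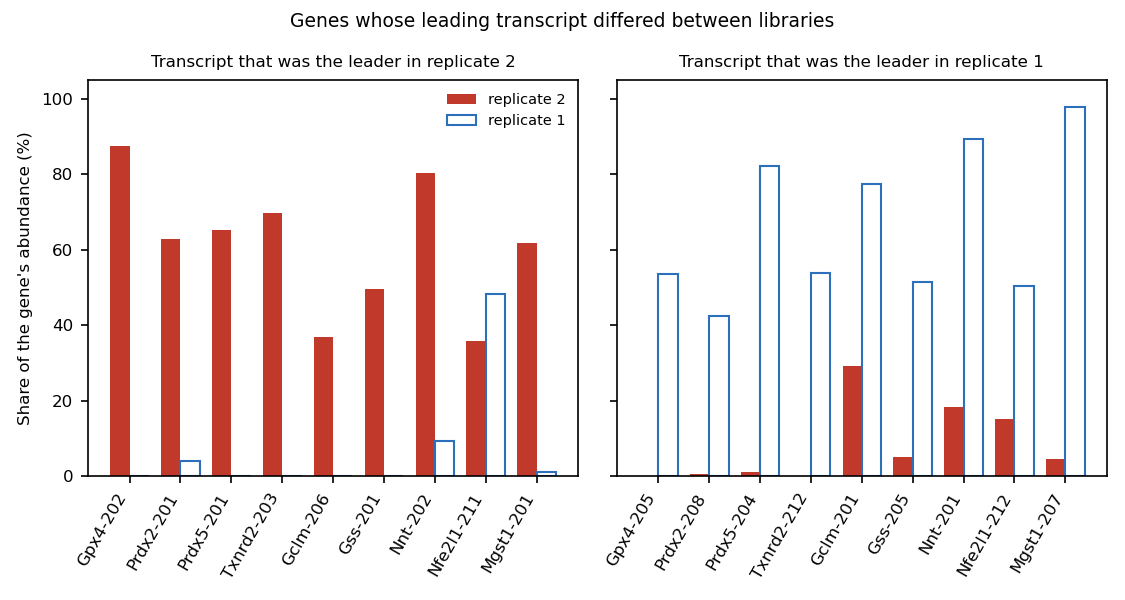
Share of the gene's abundance (%) of the transcript that led in replicate 2 (left) and of the one that led in replicate 1 (right) for the 9 genes whose leader differed, with filled bars for replicate 2 and open bars for replicate 1. Apart from Nfe2l1-211, every leader in replicate 2 had under 10% in replicate 1, with Nnt-202 at 9.24%.

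**Figure D5:**
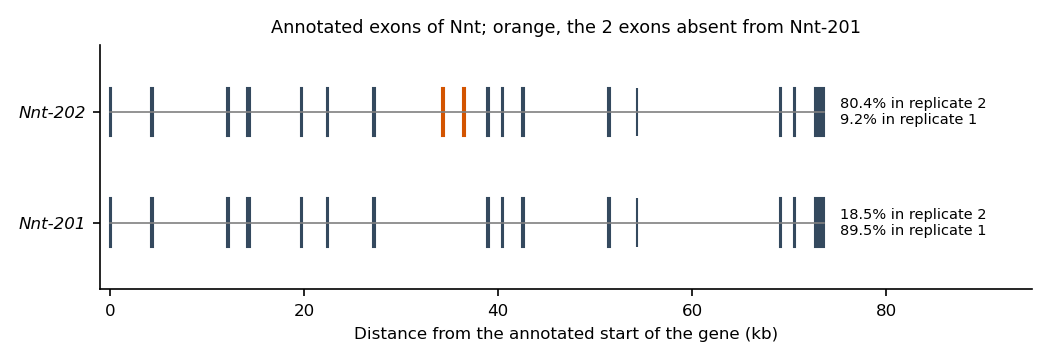
Annotated exons of Nnt-202 and Nnt-201 by distance from the start of the gene (kb), with the 2 exons absent from Nnt-201 in orange and each transcript's share at the right. Nnt-202 has 80.4% in replicate 2 and 9.24% in replicate 1, and Nnt-201 has 18.5% in replicate 2 and 89.5% in replicate 1.

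Of 70 other genes of these pathways all were found and 68 had enough counts. At least 2-fold higher in replicate 2 were 38 of them, beside 39.0% of all genes tested, and 13 were lower, beside 27.3%, with a median log2 ratio of 1.34, beside 0.21 over all genes tested. Fth1, a subunit of the iron store ferritin, had 1541 TPM in replicate 2 and 135 TPM in replicate 1. Idh2, the mitochondrial isocitrate dehydrogenase that makes NADPH, had 857 TPM in replicate 2 and 12.4 TPM in replicate 1. Both were called higher, as was Ftl1, the light ferritin subunit, with 268 TPM in replicate 2 and 0.27 TPM in replicate 1. Selenop, a selenium carrier, was called lower on scaled counts, with deposited values of 182 TPM in replicate 2 and 90.3 TPM in replicate 1. Sqstm1, which binds KEAP1, was called higher (179 TPM in replicate 2 and 28.6 TPM in replicate 1). Txnip, an inhibitor of thioredoxin, was not called (197 TPM in replicate 2 and 23.8 TPM in replicate 1).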

How the data were processed

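Poly(A) RNA of 1 mouse heart was measured in 2 technical libraries. The deposited tables use mm10 and annotation release M4, per the file descriptions deposited with them, and the sources used here name no aligner, counter or use of strand. The expected count of a gene or transcript is the authors' estimate of its reads and can be fractional. TPM and FPKM were length-corrected and scaled per library by the authors, and the share of a transcript in its gene is a percent in the deposited tables. Replicate 2 held 19685821 counts and replicate 1 held 22775991, and 26345 other features held 0.

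Symbols, coordinates (1-based), exons and GC content, weighted by TPM, come from release M21 of the same assembly. Of the tested nuclear genes 99.5% had a GC value. Copies were found with blastn 2.17.0 (at least 95% identity over 90% of the length for mitochondrial genes and 80% of the shorter transcript for the set).

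Expected counts were rounded, library sizes were scaled by TMM (edgeR 4.0.16, R 4.3.3), and the log2 ratio of replicate 2 over replicate 1 had 0.5 counts added, over genes with at least 20 counts in both libraries together. Calls are folds of at least 2 without a test. Ratio intervals are exact binomial (Clopper-Pearson, 95%). DESeq2 1.42.0 size factors were an alternative. The GC trend is the median log2 ratio in 50 bins. The ratio step was tested on simulated data. Pair ratios use log2(TPM + 0.1).

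The genes named are all 40, the 6 of highest mean TPM among the other pathway genes, and both genes of each pair. Also named are the 2 highest markers of a list given by its sum, the leading transcripts, and Pln, a cardiomyocyte marker called lower. Genes, lists and alternatives were chosen with earlier results of these data known.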

Additional observations from a re-analysis of the deposited data

How the results depend on the processing

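Settings were changed 1 at a time. The 20 genes of the set higher in replicate 2 became 39 with TPM as deposited, 11 with the GC trend removed and 13 of 33 with at least 20 counts in each library. The 2 lower became 5 with DESeq2 size factors, 6 with rescaled TPM and 0 with TPM as deposited or at least 4-fold. For other pathway genes the 38 higher became 59 with TPM as deposited, 19 with the GC trend removed, 17 of 46 with at least 20 counts in each library and 24 at 4-fold. Their 13 lower became 0 with TPM as deposited, 8 with the GC trend removed and 3 at 4-fold. Shares of all genes were computed only for the main setting (39.0% higher, 27.3% lower) and with the GC trend removed (14.8% higher, 12.9% lower). Counts under the other settings therefore cannot be set against all genes. With the GC trend removed, signs turned for the called genes Gpx3 (-0.38), Txn2 (-0.74) and Keap1 (-1.90), for 7 genes within 2-fold, and in mean log2 ratio for the pairs Nfe2l2 over Keap1 (-0.30) and Prdx5 over Prdx3 (0.92). With TPM as deposited all 40 ratios were positive, which turned the called Glrx2 (1.42) and Gclm (1.69) and 13 genes within 2-fold. That last setting carries the mitochondrial share, and its median log2 ratio over all genes was 2.16, beside 0.21 in the main setting, 0.11 with DESeq2 size factors and -0.01 with rescaled TPM. Mean summed TPM, 2107, was 8271 when rescaled, and 3705 or 510.1 without replicate 1 or replicate 2. Genes at 1 TPM in both libraries, 30, were 19 at 5 TPM, and 40 or 30 with a library left out. The 31 genes with the same leading transcript were 16 of 25 among those with more than 1 transcript. With at least 20 counts in each library as well, a filter chosen after seeing the data, they were 14 of 21. Posterior mean counts changed no call of a gene of the set. Shares of posterior mean TPM changed whether the libraries shared a leading transcript for Nfe2l1 and Keap1. No paired analysis was possible because there is 1 group. Few nuclear counts limit replicate 1, where 7 genes had under 20.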
